A study of Homo sapiens with 2 samples.

Results

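The AP-1 and immediate early genes examined here were the 4 FOS genes FOS, FOSB, FOSL1 and FOSL2, the 3 JUN genes JUN, JUNB and JUND, and ATF3, EGR1 and IER2. They are 10 of the 22465 genes that had a row of their own on the array. They were taken by symbol, each from the 1 row that the platform annotation gives to that gene alone. All RNA came from KYSE150, a long-used cell line derived from a human squamous carcinoma of the esophagus, grown with serum. The knockdown group, shlncRNA625, carried a stably integrated hairpin that targets lncRNA625, a transcript with no protein product, and the control group, shscramble, carried a scrambled hairpin. Both had been selected with puromycin. The study screened clones for knockdown, but the sources do not state whether the hybridized RNA came from 1 clone. A single Human Transcriptome Array 2.0 was run per group, which leaves every value below without replicate, error or test.

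AP-1 is a transcription factor made of a pair of basic leucine zipper proteins, usually one of the FOS and one of the JUN family. JUN proteins can also pair with each other, whereas FOS proteins need a partner. Immediate early genes such as FOS, JUNB, EGR1 and IER2 are transcribed within minutes of serum, growth factors or stress, without new protein synthesis, and their messages are short-lived. In squamous epithelium AP-1 takes part in both proliferation and differentiation. The interval between the last change of medium and lysis, on which messages of this kind depend, is not stated.

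Of the genes, JUNB, IER2 and EGR1 had a higher value on the knockdown array, and the other 7 had exactly equal values on both. For orientation, the 250 bases before the RefSeq start of JUNB, IER2, EGR1 and JUND are shown 5′ to 3′. They are given on the strand of the gene, in build GRCh38.p14. JUND, like JUN, is a relative of JUNB with equal values within the background range. Capitals mark the CArG box (the site of serum response factor), TGACG (the core of the cyclic AMP response element, written CGTCA on the other strand), TATAAA and CCAAT. The windows lie at chr19:12791236-12791485 on the plus strand for JUNB, chr19:13150161-13150410 on the plus strand for IER2, chr5:138465229-138465478 on the plus strand for EGR1 and chr19:18281623-18281872 on the minus strand for JUND.
JUNB: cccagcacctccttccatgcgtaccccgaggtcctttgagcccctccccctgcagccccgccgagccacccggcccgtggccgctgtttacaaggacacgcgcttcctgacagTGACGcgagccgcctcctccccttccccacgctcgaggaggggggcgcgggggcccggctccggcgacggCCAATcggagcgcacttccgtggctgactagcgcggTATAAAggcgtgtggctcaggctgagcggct
IER2: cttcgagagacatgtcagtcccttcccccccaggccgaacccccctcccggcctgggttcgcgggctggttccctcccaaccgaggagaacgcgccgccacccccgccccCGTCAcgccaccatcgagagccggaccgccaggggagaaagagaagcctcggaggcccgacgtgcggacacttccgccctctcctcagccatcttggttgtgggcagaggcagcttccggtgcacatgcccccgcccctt
EGR1: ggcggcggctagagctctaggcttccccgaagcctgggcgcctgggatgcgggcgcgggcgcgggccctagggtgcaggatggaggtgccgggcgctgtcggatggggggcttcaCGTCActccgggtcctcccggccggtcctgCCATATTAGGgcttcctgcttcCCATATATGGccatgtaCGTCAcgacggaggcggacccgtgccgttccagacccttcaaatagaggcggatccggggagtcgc
JUND: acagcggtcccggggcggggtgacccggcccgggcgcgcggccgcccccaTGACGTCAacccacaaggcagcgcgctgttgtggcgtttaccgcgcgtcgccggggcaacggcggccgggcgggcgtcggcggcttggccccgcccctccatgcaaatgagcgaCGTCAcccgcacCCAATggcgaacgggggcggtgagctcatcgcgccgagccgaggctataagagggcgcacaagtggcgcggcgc

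A window was given for 9 of the 10 members, FOSL1 being without one. EGR1 held 2 CArG boxes in its window, and the other 8 windowed members held none. Over 35116 windows of the same length, 1.16% held one. Sequence outside the windows was not searched, so a CArG box further upstream of FOS or another member would have been missed. TGACG was found, on either strand, in 8 of the 9 members, ATF3 being the exception, against 21.2% of all windows. The full element TGACGTCA, which contains TGACG, was found in JUND alone, against 1.65% of all windows. TATAAA occurred in JUNB, FOS, FOSB and ATF3 (10.7% of all windows), and CCAAT in JUN, JUNB, JUND and ATF3 (11240 of all windows). ATF3 had 2 windows, 1 with TATAAA and the other with CCAAT. The AP-1 site, searched only in the spelling TGANTCA, occurred in 0 of the 9 (6.57%). Variants of other length or spelling were not searched. The windows of JUNB, IER2 and EGR1 had a GC content of 70.8%, 69.6% and 68.4%, against a median of 58.0%. Those of the equal members JUND, FOSL2, FOSB, FOS and JUN had 74.8%, 69.6%, 65.6%, 64.8% and 62.0%. The 2 windows of ATF3 had 49.2% and 44.8%. JUNB and JUND both held TGACG and CCAAT. A match of letters is a description of the window and says nothing of binding in these cells.

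Values are given on the log2 scale as deposited, and differences are knockdown minus control. Genes were counted where the mean of both arrays reached 4.97, the median of rows with 1 gene symbol, which 11323 genes did. The 23 background probe rows ranged from 2.47 to 6.003, with a median of 3.34. The highest was GC04, followed by GC03, at 5.54 in control cells and 5.65 after knockdown, and GC05 at 4.74. Values up to 6.003 are called within the background range, and no call of detection was made per gene. The medians over all rows were 4.34 and 4.35. No row was tied to lncRNA625, so the knockdown itself was not checked. Of 7 squamous markers listed, 4 were measured and passed the limit, of which 0 were higher, 3 were lower and 1 was equal. For comparison, 12.1% of the 11323 genes had a lower knockdown value and 11.8% a higher one. By at least 0.1 it was 6.62% and 6.76%. The keratin gene KRT5 was at 16.50 in control cells and at 16.11 after knockdown (-0.39), the desmosomal cadherin gene DSG3 at 11.51 and 11.25 (-0.27) and the stratifin gene SFN at 14.48 and 14.29 (-0.19), while KRT14 was within the background range at 5.63 on both arrays. Differences were more frequent among bright genes. At a mean of 11 to 12, where DSG3 lies, 190 of 677 genes were lower and 134 higher. At 14 to 15, with SFN, 37 of 119 were lower and 40 higher. The part of the squamous markers in the differences of JUNB, IER2 and EGR1 was not tested. All 14 measured markers of fibroblasts, endothelium, leukocytes and columnar epithelium were below the limit, from 3.50 to 4.68, and equal on both arrays.

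**Figure D1:**
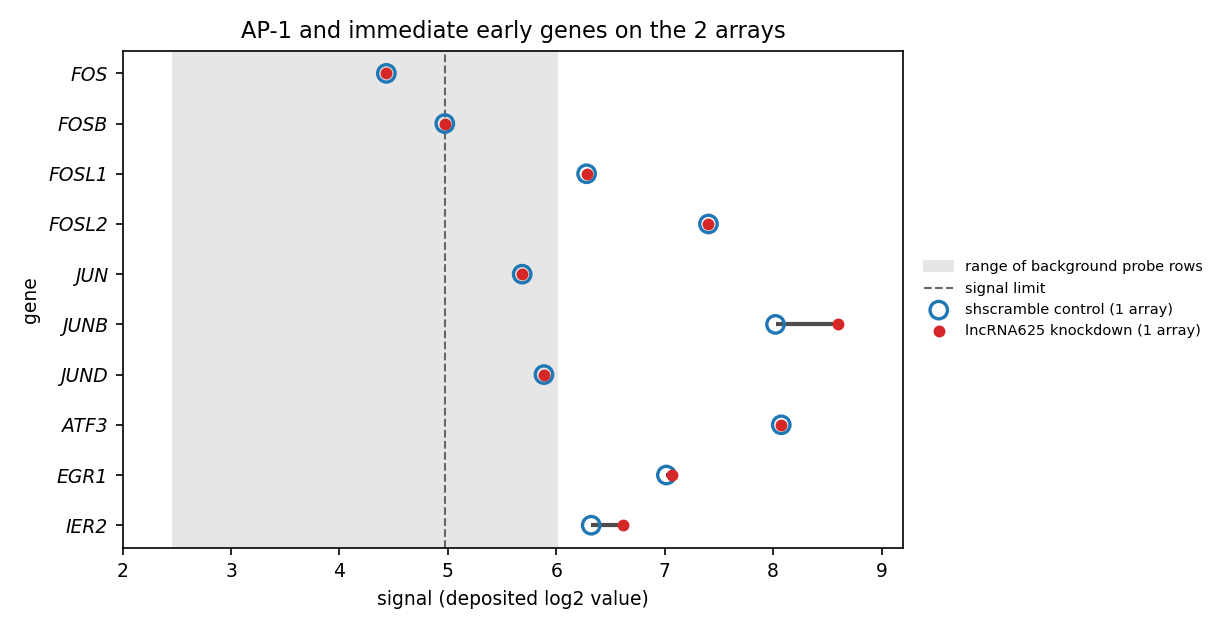
Deposited log2 signal of the 10 genes (x axis) on the shscramble control array (open blue circles) and the lncRNA625 knockdown array (red points), 1 array each, joined by a line. The grey area is the range of the background probe rows, 2.47 to 6.003, and the dashed line is the signal limit of 4.97; JUNB and IER2 show a visible shift to the right and EGR1 a shift of 0.05.

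Among the JUN genes, which supply the partner that every FOS protein needs, JUNB differed and its relatives did not. JUNB, which is often set against JUN as the weaker activator and a brake on JUN-driven growth, was at 8.02 in control cells and at 8.60 after knockdown. Its difference of 0.58 corresponds to 1.49-fold. At 0.580 against 0.585 it lies just under the 1.5-fold limit given in the results of the study. The methods of the study name a 2-fold limit instead, which JUNB does not approach. JUN, the founding member and a target of the JNK kinases, was at 5.69 on both arrays. JUND, which is expressed more constantly than its relatives, was at 5.89 on both. Both rows lie within the background range, although only its highest row, GC04 at 6.003, exceeds them. For JUN and JUND the equal values therefore do not show unaltered messages.

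The FOS genes had equal values throughout. FOS, the classical serum-induced gene, was at 4.43 on both arrays, below the signal limit. The same value stood in 147 rows of the control array and in 146 of the other, 1 of the background probe rows among them. FOSB, which encodes a further FOS protein and a shorter splice form, was at 4.971 against a limit of 4.973, and 32 rows held that value on the control array. FOSL1, whose protein FRA1 is linked to invasion in squamous carcinoma, was at 6.28 and thus slightly above the background rows, at a value held by 14 rows on the control array. FOSL2, encoding FRA2, lay above the background rows, at 7.40 on both arrays. FOS and FOSB were thus below the signal limit and within the background range on both arrays, and their equal values do not show unaltered messages.

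The 3 genes outside the FOS and JUN families that mark an early response gave 1 equal and 2 higher values. ATF3, a stress-induced basic leucine zipper protein that can pair with JUN proteins, was at 8.07 on both arrays, well above background. EGR1, a zinc finger factor induced through serum response factor, was at 7.02 on the control and 7.06 on the knockdown array. Its difference of 0.05 corresponds to 1.03-fold, and 1027 genes, 9.07% of those past the limit, had a difference at least as high. IER2, a nuclear protein with no basic leucine zipper, was at 6.32 on the control and 6.62 on the knockdown array. Its difference of 0.29 corresponds to 1.23-fold, and 307 genes, 2.71%, were at least as high. For JUNB the corresponding number was 127 genes, or 1.12%. These ranks describe the 2 arrays and are not a test.

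In all, 8 of the 10 genes passed the signal limit, and of these 3 were higher, 0 were lower and 5 were equal. The background, taken as every gene that passed, was 11.8% higher, 12.1% lower and 76.0% exactly equal. Centring the arrays on their medians, quantile normalization and removal of a trend each left JUNB, IER2 and EGR1 higher and turned the 7 equal genes slightly lower, with differences of -0.031 to -0.00041. JUNB and IER2 were higher by at least 0.1 and 0 of the 8 were lower by as much, against 6.76% and 6.62% of all genes. By more than 1.5-fold, 0 of the 8 differed in either direction, where the background was 1.11% higher and 0.477% lower. The median difference was 0 for the 8 genes and 0 for all genes, and the means were 0.12 and 0.0054. The mean of the 8 genes rests on JUNB and IER2.

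**Figure D2:**
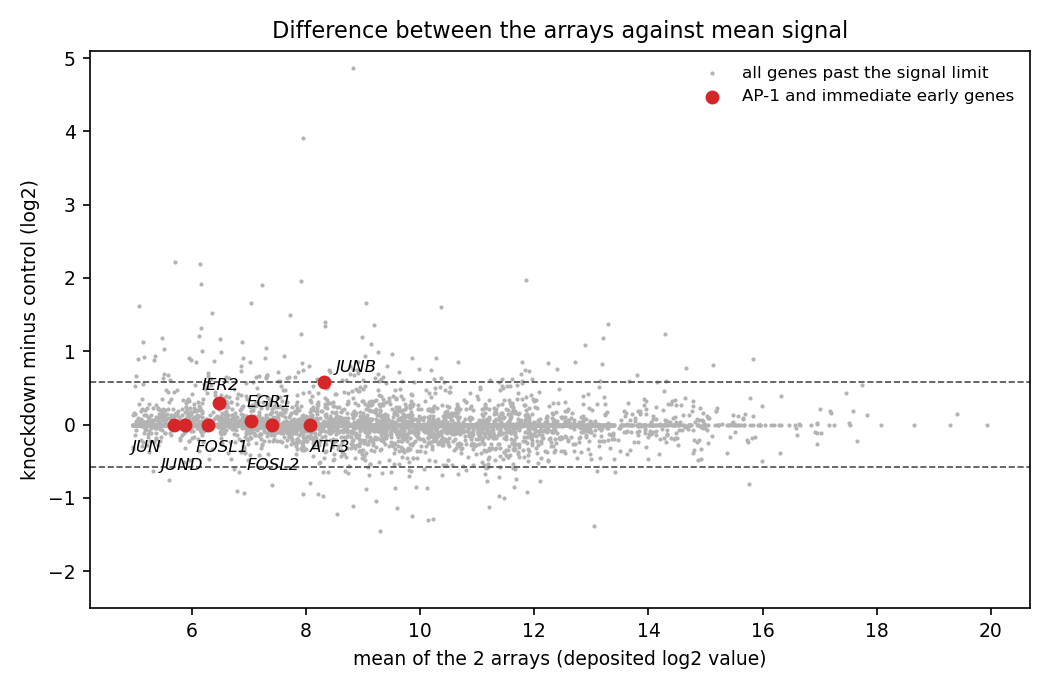
Difference between the arrays (knockdown minus control, log2, y axis) against the mean of both arrays (deposited log2 value, x axis) for the 11323 genes past the signal limit (grey), with the 8 AP-1 and immediate early genes among them in red. Dashed lines are the 1.5-fold limits of 0.585 in either direction; JUNB sits just under the upper line at 0.580.

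Equal values were common at all signal strengths on these arrays, and more so where the signal was dim. Of genes with a mean of 5 to 6, where JUN and JUND lie, 90.3% were equal, and of those at 6 to 7, with FOSL1 and IER2, 86.4%. At 7 to 8, where EGR1 and FOSL2 lie, 80.2% were equal, and at 8 to 9, with JUNB and ATF3, 75.3%. In the last of these bands, 187 genes of 1560 were higher and 198 lower, and 18 were higher by more than 1.5-fold. Each band up to 9 thus held 1 pair of these genes, and within 3 of the 4 pairs 1 gene was higher and the other equal. The part of the summary step in the equal values was not tested. Since equality was this common above the background rows too, it does not show unaltered messages for FOSL1, FOSL2 and ATF3 either.

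**Figure D3:**
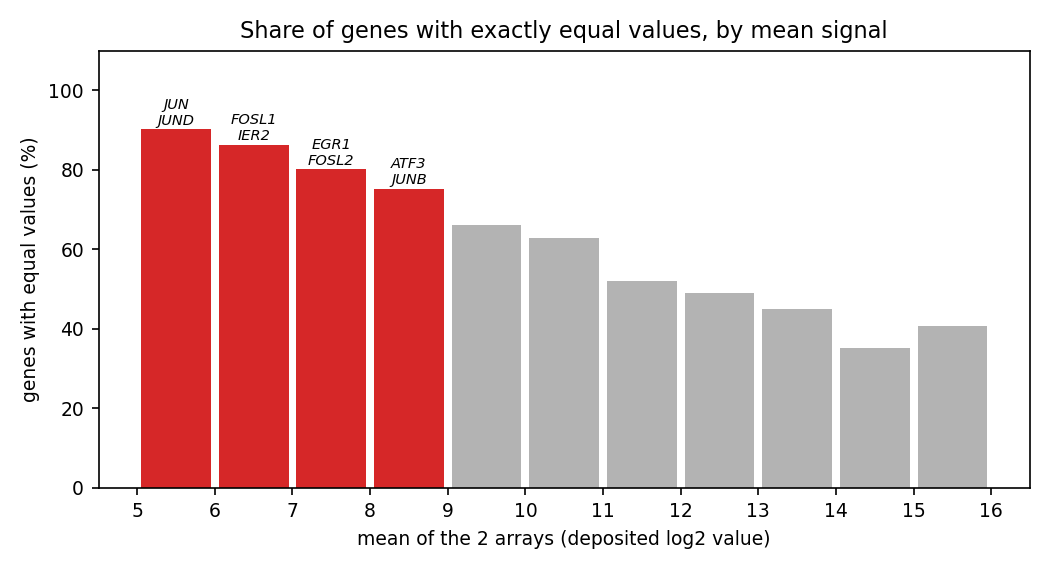
Share of genes with exactly equal values on both arrays (y axis, percent) in bands of mean signal that are 1 wide on the deposited log2 scale (x axis), for genes past the signal limit with a mean of 5 to 16. Bands that hold AP-1 and immediate early genes are red and carry their names; the share is 90.3% in the band of JUN and JUND and 75.3% in the band of ATF3 and JUNB.

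Other immediate early genes were mostly equal. Of 25 listed, 23 had a row of their own and 14 passed the limit, of which 1 was higher, 2 were lower and 11 were equal. These shares are near those of all genes, 11.8% higher, 12.1% lower and 76.0% equal. GADD45B, a stress sensor that feeds into the p38 and JNK pathways, was higher by 0.37, with values of 8.15 and 8.52. IER3, a survival factor that shares its name but not its family with IER2, was lower, with 10.58 and 10.37, a difference of -0.22. Further basic leucine zipper factors, which include possible partners of the FOS and JUN proteins, were equal in 11 of 12 cases, against 76.0% of all genes. The remaining one was ATF4, the factor of the integrated stress response, with a difference of 0.0013, smaller than the shift of the median that any of the 3 scalings brought. For genes within the background range, equal values do not show unaltered messages. Of the immediate early genes past the limit, these were NR4A1, NR4A2, KLF4, PPP1R15A, TRIB1 and SGK1. Of the leucine zipper factors past it, they were BATF, BATF3, JDP2, CREB5, CREM and DDIT3.

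Among the kinases and factors that act upstream of these genes, 17 of 21 listed were measured and all 17 passed the limit. Of these 1 was higher, 5 were lower and 11 were equal, against 11.8%, 12.1% and 76.0% of all genes. By at least 0.1 there were 0 higher and 3 lower, against 6.76% and 6.62% of all genes. MAP2K4, one of the kinases that activate JNK, differed by -0.54, from 9.40 to 8.86. MAP2K1, a kinase that activates ERK, differed by -0.25, from 11.23 to 10.98, while its relative MAP2K2 was equal at 7.45. RPS6KA4, a kinase of histone H3 and CREB downstream of p38 and ERK, differed by -0.19, from 6.61 to 6.42. SRF and ELK1, which act at the CArG box, were equal at 6.72 and 7.03.

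Of 21 genes listed as known AP-1 targets, 19 were measured and 11 passed the limit, with 4 higher, 2 lower and 5 equal, against 11.8%, 12.1% and 76.0% of all genes. All 6 that differed did so by at least 0.1, where the background was 6.76% higher and 6.62% lower. PLAU, the urokinase plasminogen activator, was higher by 0.57, with values of 9.12 and 9.69. The cytokine gene IL6 was at 5.77 and 6.12, a difference of 0.35, and its control value lay within the background range. MMP13, a collagenase, differed by 0.22, from 7.11 to 7.33. CD44, a hyaluronan receptor, differed by -0.24, from 14.43 to 14.18. The collagenase gene MMP1 was equal at 5.55, also within the background range, as were HMOX1 at 5.08 and EDN1 at 5.33. The list therefore held genes in both directions, and 0 of the 11 differed by more than 1.5-fold.

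Of the 5 EGR1 corepressors and targets listed, all passed the limit, with 1 higher, 1 lower and 3 equal. The shares over all genes past the limit were 11.8%, 12.1% and 76.0%. EGR1 induces its own corepressor NAB2, which was equal at 6.30, as was NAB1 at 9.41. Of the EGR1 targets listed, the tissue factor gene F3 was at 11.65 and 11.80, a difference of 0.15, and PDGFA, a growth factor chain, was at 7.09 and 6.98, a difference of -0.11. Messages of many immediate early genes carry AU-rich elements and are broken down through proteins of the ZFP36 family. ZFP36L1 was higher by 0.33, from 7.91 to 8.24, and ZFP36L2 differed by -0.36, with 9.37 on the control and 9.01 on the knockdown array. ZFP36 itself was at 8.61 and 8.62. Since RNA was taken from whole cultures, more cells with a message and more message per cell cannot be told apart.

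**Figure D4:**
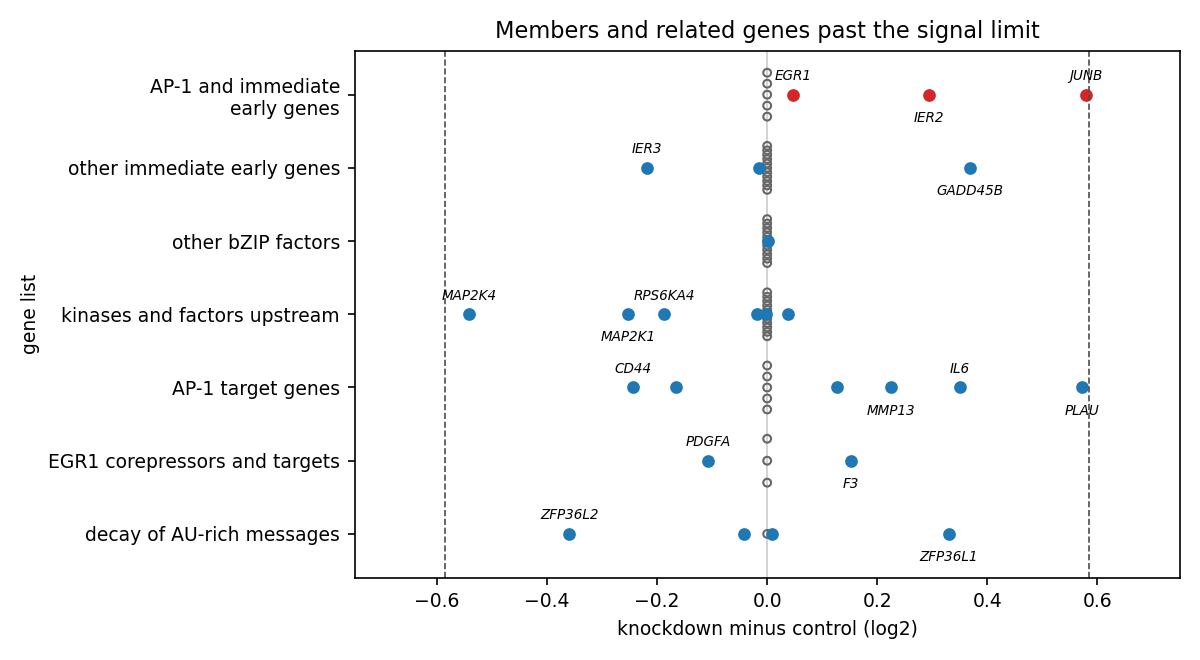
Difference between the arrays (knockdown minus control, log2, x axis) for the AP-1 and immediate early genes (red) and for genes of 6 related lists (blue) that passed the signal limit. Open grey circles are genes with equal values, spread vertically so that they can be counted, and dashed lines are the 1.5-fold limits; JUNB at 0.58, PLAU at 0.57 and MAP2K4 at -0.54 lie nearest to them.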

How the data were processed

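RNA of both KYSE150 groups was hybridized after biotin labelling, and 1 sample label speaks of siRNA although the methods describe a stable hairpin. The deposited values are on the log2 scale, which the authors obtained with RMA (version not stated). They reach 19.93, above what log2 of scanner intensities usually reaches, and the step behind this is not stated, so folds hold on the deposited scale only. RMA treats arrays jointly, so values of the 2 arrays are not independent. Of the rows, 23781 had exactly 1 symbol and 21497 matched RefSeq by gene ID. Where a gene had several rows, that with the highest mean was used.

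Differences were described without a test. The named genes were the 10 members and, per list, up to 4 genes past the signal limit with the largest absolute difference of at least 0.1. KRT14, SRF, ELK1, MAP2K2, MMP1, NAB1, NAB2, ATF4 and ZFP36 were named beyond this rule, after their values had been seen. The same holds for the neighbouring genes and for list genes named as within the background range. The members and lists were chosen with earlier results of these data known. Each array was also centred on its median, quantile normalized again or freed of a loess trend (span 0.3), and the filter, the choice of row and the fold limit were varied. For the members, with 1 row each, the choice of row could not matter. The counting of genes past the fold limit was run on a copied control array with known shifts, larger than the differences of the members. Such a run checks the code and not the reliability of differences of the size seen here. Promoter windows came from RefSeq, where FOSL1 had none and ATF3 had 2. Python 3.11.15, pandas 2.3.3, NumPy 2.4.6, statsmodels 0.14.6 and matplotlib 3.10.9 were used.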

Additional observations from a re-analysis of the deposited data

How the results depend on the processing

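The difference of JUNB ranged from 0.56 to 0.58 over the values as deposited, median centring, the second quantile normalization and removal of the loess trend. In each of these it stayed below the 1.5-fold limit. IER2 ranged from 0.28 to 0.29 and EGR1 from 0.03 to 0.05. The mean over rows could alter no member, since each had 1 row. The 7 genes with equal values took differences from -0.031 to -0.00041 under the 3 scalings. Under the 3 scalings, 0 members passed the fold limit in either direction. A stricter filter or the 2-fold limit could only keep that count at 0. Leaving the filter out added FOS and FOSB, whose values were equal. The filter at the 75th percentile left only JUNB and ATF3 of the members, of which 1 was higher by at least 0.1. Over all genes, 76 were higher past the 1.5-fold limit with that filter instead of 126, and with the 2-fold limit 33 were higher and 11 lower. With that filter the AP-1 targets higher by at least 0.1 numbered 1 instead of 4, the EGR1 targets lower by as much 0 instead of 1, and all genes higher by as much 505 instead of 766. No paired analysis was possible because each group held 1 array, and no array could be left out. Signal over background limits FOS, FOSB, JUN and JUND, and the frequency of exactly equal values limits FOSL1, FOSL2 and ATF3 as well.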

Other observations

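JUNB and IER2 lie on the same arm of chromosome 19, with 17 measured protein-coding genes between them, and the genes next to each were looked up after the values of the members had been seen. Of the 6 measured protein-coding genes closest to JUNB, 3 on either side, 4 passed the signal limit, of which 2 were higher on the knockdown array and 2 were equal, while the other 2 lay below it. The shares over all genes were 11.8% higher, 12.1% lower and 76.0% equal. The higher neighbours of JUNB were the nearest measured ones on either side, HOOK2, which encodes a microtubule adaptor and was higher by 0.31 (7.70 and 8.004), and PRDX2, a peroxide-reducing enzyme that was higher by 0.071 (9.93 and 10.001). Around IER2, 5 passed the limit, of which 4 were equal and NACC1, a transcriptional regulator, differed by -0.097. Around EGR1 on chromosome 5, 5 passed the limit, of which 4 were equal and HSPA9, a mitochondrial chaperone, differed by -0.21. Whether JUNB, HOOK2 and PRDX2 differ together for a common reason was not tested.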
